A study of Homo sapiens with 2 samples.

Results

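The 41 genes described here encode the proteins that license replication origins and build and run the replication fork. They were taken by name from the 58735 genes of the deposited count table, and each name matched 1 row. Their mRNA was compared between 1 MAEL WT and 1 MAEL KO library. Both are PLC8024 cells, a hepatocellular carcinoma (HCC) line also called PLC/PRF/5 or Alexander cells, of liver origin and epithelial form. The MAEL WT cells were wildtype and non-treated. The MAEL KO cells had received a plasmid carrying Cas9 and an sgRNA against MAEL, and the study's methods describe growing single sorted cells into clones. Per the labels, the knockout was checked by western blot and a T7E1 cleavage assay. The comparison therefore sets 1 knockout culture, possibly 1 clone, against the parental line, and with 1 library per genotype no difference has a replicate check.

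DNA replication starts in G1, when the origin recognition complex (ORC), CDC6 and CDT1 load rings of MCM2-7 onto DNA, a step called licensing. In S phase the kinase CDC7 with its partner DBF4, together with MCM10, CDC45 and GINS, turns these rings into active helicases. Polymerase alpha-primase then lays down primers, polymerases delta and epsilon copy the strands, and PCNA, loaded by replication factor C (RFC), holds them on DNA. Geminin (GMNN) blocks CDT1 after licensing, so that each origin fires once per cycle. Many of these genes are transcribed as cells pass from G1 to S phase under control of E2F factors, and their mRNA is therefore commonly high in cycling cell cultures.

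MAEL itself had 1 count in MAEL WT and 0 in MAEL KO, so its transcript could not check the labels. Total counts were 19904136 and 20833332. Some liver secretory genes were abundant in both libraries, SERPINA1 at 78162 and 232891 counts and APOB at 80091 and 135805. Others were lower, APOA1 at 419 and 4400 counts and TTR at 20 and 155. ALB and AFP, which define hepatocytes and hepatoma cells, were low in MAEL WT with 59 and 26 counts, against 8550 and 1351 in MAEL KO. EPCAM, an epithelial adhesion gene, had 15 counts in MAEL WT and 0 in MAEL KO. Summed FPKM over 17 hepatocyte and epithelial markers was 3533 in MAEL WT and 7732 in MAEL KO, and their part in the results that follow was not tested. Of 8 fibroblast markers, PDGFRA was at 0 in both libraries, and DCN, LUM and THY1 were at 0 in MAEL KO. COL1A1 had 92 and 11 counts and PDGFRB 122 and 29, while COL3A1 had 54 and 136, and the summed FPKM of the list was 1.67 and 1.33. Of 9 blood and endothelial markers, CD3E was at 0 in both and PTPRC, VWF and KDR at 0 in MAEL KO, with a summed FPKM of 2.94 and 3.11. Most of this was PECAM1, with 348 and 392 counts, and CDH5 had 4 and 15.

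Before the values, the letters of the promoters are shown, since E2F words, which recur in the promoters of S-phase genes, were found in 19 of the 35 genes with a window. RefSeq windows on GRCh38.p14, from 250 bases before to 50 bases after a start site, were matched by symbol to 35 of the 41 genes, as 44 windows. MCM4, MCM5, GINS4, POLD3, RPA2 and RPA3 had no entry. The E2F words searched on both strands were TTTCCCGC, TTTCGCGC, TTTGCCGC and TTTGGCGC. The sequences below are those that lie before the start site and on no exon of the same strand in GENCODE 29, in lower case with E2F words in capitals, 5′ to 3′ along the gene.
MCM6, chr2:135876502-135876615, minus strand: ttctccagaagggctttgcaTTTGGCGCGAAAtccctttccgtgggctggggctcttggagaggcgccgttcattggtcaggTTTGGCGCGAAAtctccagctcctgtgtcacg
MCM3, chr6:52284889-52284936, minus strand: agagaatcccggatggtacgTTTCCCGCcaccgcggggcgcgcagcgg
PCNA, chr20:5126654-5126701, minus strand: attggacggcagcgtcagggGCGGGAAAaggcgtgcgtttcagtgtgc
POLA1, chrX:24693761-24693808, plus strand: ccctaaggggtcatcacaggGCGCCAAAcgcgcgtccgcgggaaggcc
CDC7, chr1:91501024-91501105, plus strand: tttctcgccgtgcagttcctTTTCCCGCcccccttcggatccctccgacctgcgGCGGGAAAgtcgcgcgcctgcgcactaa
GMNN, chr6:24775313-24775360, plus strand: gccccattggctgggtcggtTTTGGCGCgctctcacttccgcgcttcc

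In MCM6, each run of 12 capitals is a pair of overlapping words, 1 on each strand, and the pairs begin at positions -152 and -90 from the start. The single word of PCNA begins at position -59 and reads on the opposite strand. MCM3 has a further word at position -4, which runs into the transcribed bases and is not shown. The CDC7 and GMNN windows lie inside the listed gene bounds, before an internal start site, while those of MCM6, MCM3, PCNA and POLA1 lie outside.

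All 41 genes had a higher level in MAEL KO than in MAEL WT. The log2 fold change (the log2 ratio of normalized counts, MAEL KO over MAEL WT, with 1 added to each) ran from 0.36 for RFC1 to 3.04 for MCM4, with a median of 1.79, or 3.47-fold. Differences were computed for the 17887 genes that reached 10 counts in MAEL WT or MAEL KO, the 41 among them, and 48% of these were above 0, and the median of all of them was -0.04. The log2 fold change passed 2, the study's threshold, for 13 of the 41 genes, against 2.16% of all tested genes. It passed 1 for 39, against 10.2% of all tested genes, and none was below -1, where 16.5% of all tested genes lay, or below -2, where 5.64% lay. The 95% counting interval lay above 0 for all 41 genes, and for 6220 of the 17887 tested genes. It lay above 1 for 37 of the 41 and above 2 for 12, numbers not computed for all tested genes. Each interval was computed by the exact Clopper-Pearson method from how a gene's reads divide between MAEL WT and MAEL KO, and covers counting error only. RNA was taken from whole cultures, so more cells in S phase and more mRNA per cell cannot be told apart.

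The genes took 30479 of the MAEL WT counts, or 0.153%, and 89298 of the MAEL KO counts, or 0.429%. Their median FPKM was 6.02 in MAEL WT and 18.2 in MAEL KO. Of the 41, 12 genes in MAEL WT but 34 in MAEL KO were at 10 FPKM or more. The share of all tested genes at that level was not computed. Summed FPKM of all tested genes was 267074 in MAEL WT and 335536 in MAEL KO. Levels of the 41 genes kept much of their order. Across the 41 genes Spearman's rho between the FPKM of both libraries was 0.90, where the points share libraries and gene lengths, and rho between MAEL WT FPKM and the log2 fold change was -0.23.

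**Figure D1:**
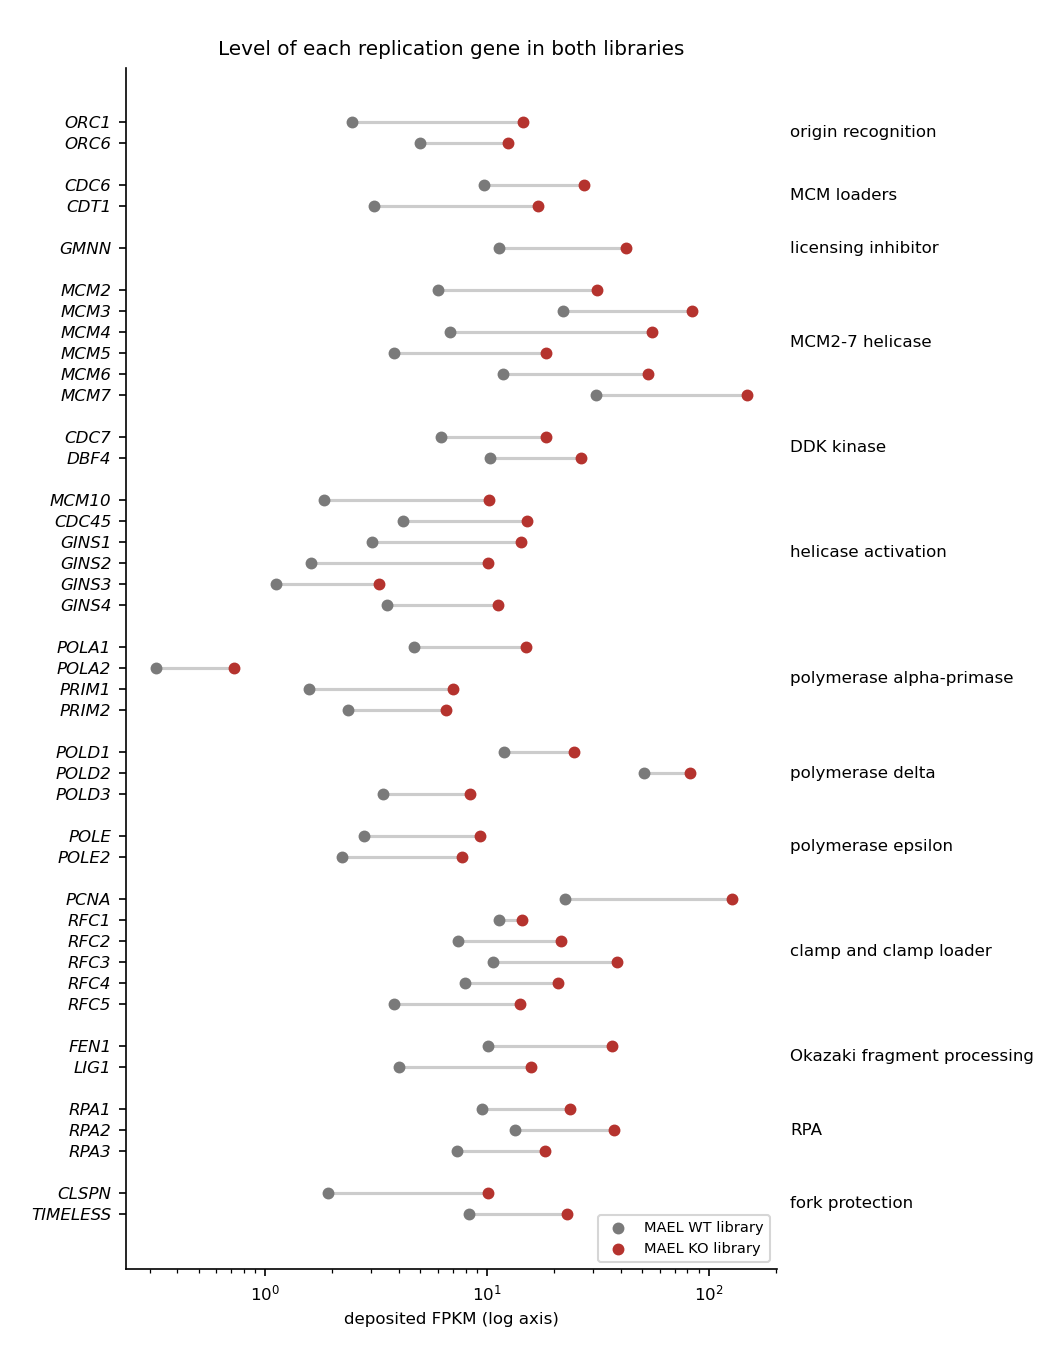
Deposited FPKM of the 41 replication genes on a log axis, with 1 grey point for the MAEL WT library and 1 red point for the MAEL KO library per gene, grouped by role. In each gene the red point lies to the right, with POLA2 lowest in both libraries and MCM7 highest in MAEL KO at 149 FPKM.

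Origin recognition came first in the order of events. ORC1, an ATPase subunit of ORC whose level cycles with G1, had 170 counts in MAEL WT and 871 in MAEL KO. The gene had a log2 fold change of 2.56 (95% interval 2.33 to 2.81). It lies on chromosome 1 from 52372829 to 52404459 on the minus strand and has up to 17 exons. ORC6, the small subunit, had 469 and 1017 counts, a log2 fold change of 1.33 (1.17 to 1.49). The other ORC subunits were nearer to no change. ORC2 had 1142 and 1298 counts with a log2 fold change of 0.39, ORC5 was at 0.54, ORC4 at 0.71 and ORC3 at 0.95. The balance within ORC can be read inside each library, which needs no scaling between libraries. Per count of ORC2 there were 0.149 counts of ORC1 in MAEL WT and 0.671 in MAEL KO, a ratio 4.51 times as high (95% interval 3.75 to 5.44). Against ORC3, ORC4 and ORC5 the ORC1 ratio was 3.06, 3.63 and 4.08 times as high, and for ORC6 these ratios were between 1.29 and 1.91 times as high, each with an interval above 1.

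CDC6 and CDT1, which bring the helicase to ORC, differed by unequal amounts. CDC6 had 1180 and 2877 counts, a log2 fold change of 1.50 (1.40 to 1.60). CDT1 had 225 and 1070 counts, a log2 fold change of 2.45 (2.25 to 2.67). GMNN, the inhibitor of CDT1, had 613 and 1979 counts, a log2 fold change of 1.90 (1.77 to 2.03). The inhibitor was thus higher together with its target. Counts of CDT1 per count of GMNN went from 0.367 to 0.541, 1.47 times as high in MAEL KO (1.24 to 1.75). Counts of CDC6 per count of GMNN went the other way, from 1.92 to 1.45, a ratio of 0.755 (0.673 to 0.847).

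The 6 subunits of the MCM2-7 ring, the motor that unwinds DNA, held 5 of the 13 genes above 2. MCM4 had 1033 counts in MAEL WT and 7355 in MAEL KO, 8.23-fold by normalized counts and rank 102 of the 17887 tested genes. MCM7 had 2979 and 12407 counts, a log2 fold change of 2.27 (2.21 to 2.33). It lies on chromosome 7 from 100092728 to 100101940 on the minus strand. Of its exonic bases, 8.94% are shared with exons of AP4M1 on the opposite strand. Opposite-strand shares were larger for MCM2 and GINS4, each 23.6%, and for GINS3 and RFC5, at 10.9% and 10.6%. MCM2 had 645 and 2916 counts and was at 2.39, MCM5 had 609 and 2555 and was at 2.28, and MCM6 had 1060 and 4129 and was at 2.17. MCM3 had 1746 and 5784 counts and was at 1.94 (1.86 to 2.02), just under the threshold. The intervals of MCM2, MCM5 and MCM7 overlap, whereas that of MCM4 lies above all 5 others.

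Per length, the MCM2-7 genes kept nearly the same order. In MAEL WT, FPKM was 31.1 for MCM7, 21.9 for MCM3, 11.8 for MCM6, 6.77 for MCM4, 6.02 for MCM2 and 3.79 for MCM5. In MAEL KO it was 149 for MCM7, 83.6 for MCM3, 55.6 for MCM4, 52.9 for MCM6, 31.4 for MCM2 and 18.4 for MCM5. By the listed gene length, MCM4 thus moved from below MCM6 to just above it. The exact Poisson intervals of their FPKM were 6.37 to 7.20 against 11.1 to 12.5 in MAEL WT, and 54.4 to 56.9 against 51.3 to 54.5 in MAEL KO, where they overlap. Per kilobase of the principal GENCODE transcript, normalized counts were 230.2 for MCM4 and 264 for MCM6 in MAEL WT, and 1896 and 1192 in MAEL KO, so the gap in MAEL KO depends on the length used. Within libraries, MCM4 counts per MCM6 count were 1.83 times as high in MAEL KO (1.66 to 2.01), while MCM5 counts per MCM6 count were 1.08 times as high with an interval that includes 1 (0.962 to 1.21). The highest subunit was 8.18 times the lowest by FPKM in MAEL WT and 8.12 times in MAEL KO. Part of this spread rests on the gene length used, since with the length of the principal GENCODE transcript it was 5.85 and 5.80 times.

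Helicase activation followed the same direction. DBF4 and CDC7, the regulatory and catalytic parts of the kinase that phosphorylates MCM proteins, were at 1.37 (1029 and 2301 counts) and 1.57 (481 and 1238 counts). MCM10, which acts as the helicase starts to move, had 218 and 1056 counts, a log2 fold change of 2.48 (2.27 to 2.70). CDC45, the helicase cofactor, had 261 and 814 counts and was at 1.85 (1.65 to 2.06). The GINS complex, the other cofactor, was uneven. GINS2 had 114 and 627 counts, a log2 fold change of 2.66 (2.38 to 2.97), second among the 41 genes after MCM4. GINS1 was at 2.24 with 268 and 1097 counts, GINS4 at 1.67 with 422 and 1164, and GINS3 at 1.53 with 125 and 314. GINS2 counts per GINS3 count were 2.19 times as high in MAEL KO (1.62 to 2.95), while those of GINS4 per GINS3 were 1.10 times as high (0.860 to 1.40), an interval that includes 1.

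**Figure D2:**
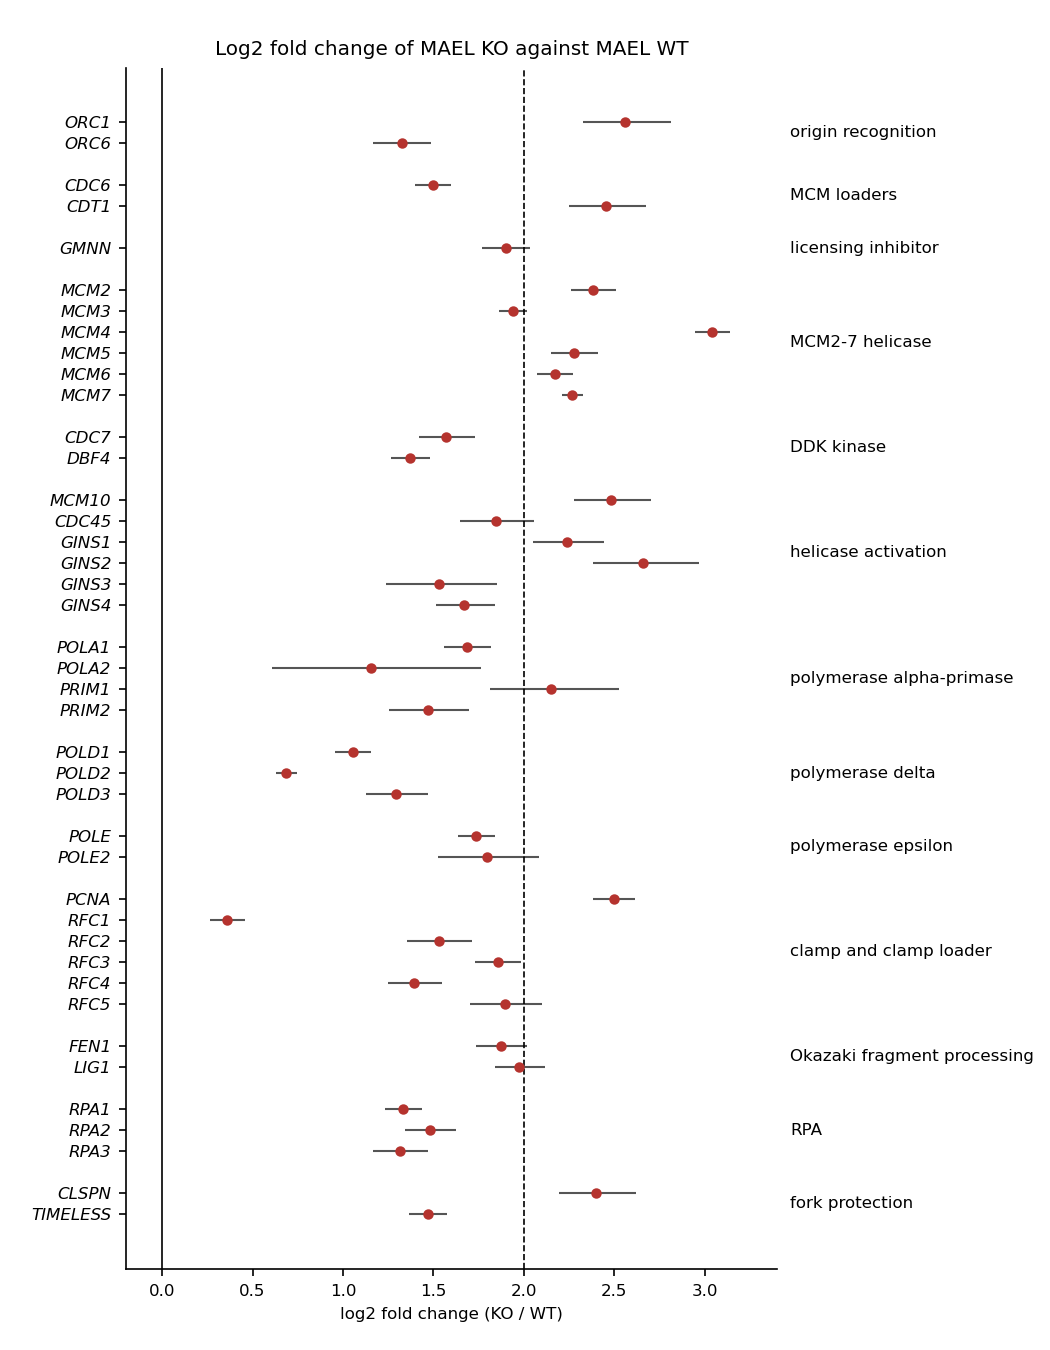
Log2 fold change of MAEL KO over MAEL WT for each gene, grouped by role, with bars for the 95% interval of counting error. A dashed line marks 2, and points run from 0.36 for RFC1 to 3.04 for MCM4, all to the right of the solid line at 0.

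Among the polymerases, the values differed by enzyme. POLA1, the catalytic subunit of the priming polymerase, had 648 and 1804 counts, a log2 fold change of 1.69 (1.56 to 1.82). The primase subunits PRIM1 and PRIM2 were at 2.15 (84 and 325 counts) and 1.47 (240 and 577 counts), and the interval of PRIM1, 1.81 to 2.53, includes 2. POLA2 had the fewest counts of all, 40 and 78, and was at 1.15 with the widest interval (0.61 to 1.76). Of its exonic bases, 35.1% are shared on the same strand with AP000944.2, a protein-coding gene that had 6 counts in each library. Whether reads in shared bases were counted is not given in the sources used here, so the level of POLA2 is uncertain. PRIM1 shares 16.2% of its exonic bases on the same strand with AC117378.1 and NACA. NACA had 4229 counts in MAEL WT and 5892 in MAEL KO, far above PRIM1, so the level of PRIM1 is uncertain too.

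Polymerase delta, which copies the lagging strand, was the enzyme nearest to no change. POLD2, its accessory subunit, had 4135 and 5752 counts, a log2 fold change of 0.69 (0.63 to 0.74). It was the most abundant of the 41 genes per length in MAEL WT, at 51.2 FPKM, and reached 82.1 in MAEL KO. POLD1, the catalytic subunit, was at 1.05 (1287 and 2311 counts) and POLD3 at 1.30 (410 and 871 counts). Polymerase epsilon, which copies the leading strand, lay higher, with POLE at 1.74 (1009 and 2908 counts) and POLE2 at 1.79 (143 and 431 counts). POLE2 counts per POLE count were 0.142 and 0.148, 1.05 times as high in MAEL KO with an interval of 0.852 to 1.29. The small subunits POLE3 and POLE4, which also serve in chromatin complexes, were at 1.01 and -0.02. POLD4, the smallest subunit of polymerase delta, was lower in MAEL KO, with 751 and 455 counts and a log2 fold change of -0.51.

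The sliding clamp PCNA had 725 counts in MAEL WT and 3545 in MAEL KO, a log2 fold change of 2.50 (2.38 to 2.62), with 22.5 and 127 FPKM. It lies on chromosome 20 from 5114953 to 5126626 on the minus strand. RFC1, the large subunit of the complex that opens and loads the clamp, was the gene of the 41 nearest to no change. It had 1656 and 1837 counts, a log2 fold change of 0.36 (0.26 to 0.46), and 0.08 when libraries were scaled by total counts. RFC1 lies on chromosome 4 from 39287456 to 39366375 on the minus strand, with up to 25 exons. The small subunits, which are shared with other clamp loaders and unloaders, were at 1.39 for RFC4 (520 and 1183 counts), 1.53 for RFC2 (359 and 899), 1.85 for RFC3 (670 and 2097) and 1.89 for RFC5 (269 and 867). Counts of these 4 subunits per RFC1 count were between 2.05 and 2.91 times as high in MAEL KO, with no interval reaching below 1.81. CHTF18 and ATAD5, the large subunits of alternative complexes, were at 1.13 and 1.27.

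FEN1 and LIG1, the flap nuclease and ligase that join Okazaki fragments, were close to each other at 1.87 (544 and 1726 counts) and 1.98 (576 and 1961 counts). FEN1 counts per LIG1 count were 0.932 times as high in MAEL KO, with an interval of 0.813 to 1.07. RPA1, RPA2 and RPA3, which coat single-stranded DNA, lay within a narrow range, at 1.33 (1134 and 2470 counts), 1.48 (589 and 1422) and 1.31 (518 and 1114). Ratios among the RPA genes were between 0.902 and 1.12 times as high, and each interval includes 1. CLSPN, the checkpoint adaptor that travels with the fork, had 226 and 1034 counts and was at 2.40 (2.20 to 2.62). TIMELESS, which pairs with TIPIN to steady the fork, had 1050 and 2515 counts and was at 1.47, and TIPIN was at 0.73.

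**Figure D3:**
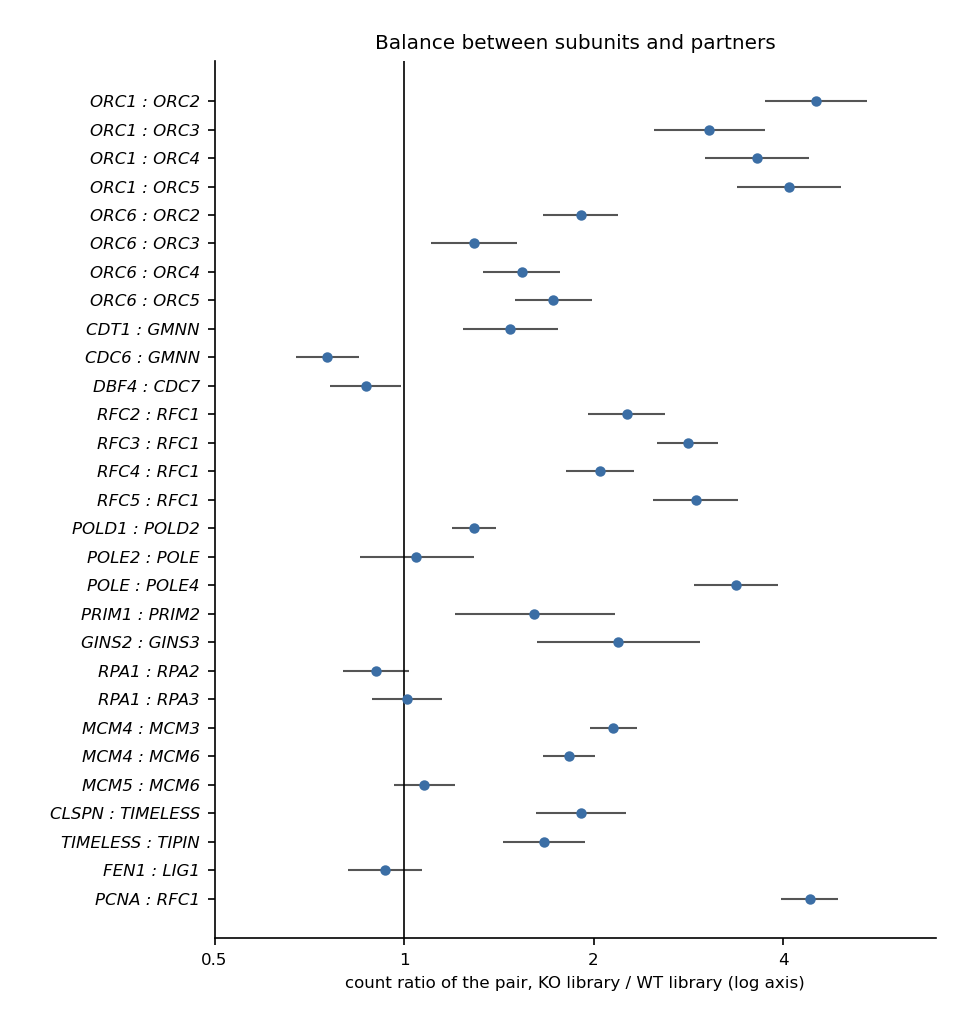
Ratio of the counts of 2 genes in the MAEL KO library over the same ratio in the MAEL WT library, on a log axis, with exact 95% intervals of counting error. Values above 1 mean that the first gene gained on the second, as ORC1 did on ORC2 (4.51) and PCNA on RFC1 (4.41), while RPA1 to RPA3 stayed at 1.01.

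The wider replication machinery was compared through lists that do not contain these 41 genes. Among 33 other replication genes, 31 were higher in MAEL KO and 2 lower, and the median was 1.01 (95% interval of the median 0.72 to 1.50). A log2 fold change of 2 was passed by 2 of them (6.06%, against 2.16% of all tested genes). The members above 2 were TICRR, which recruits CDC45 to origins (200 and 983 counts, 2.50), and ASF1B, a histone chaperone (322 and 1446 counts, 2.37). Scaled by total counts, ASF1A and CHTF8 went from above to below 0, at -0.19 and -0.02. Of 12 genes of deoxynucleotide supply, 4 passed 2 (33.3%, against 2.16% of all tested genes), among them RRM2, TYMS and TK1. RRM2, the cycling subunit of ribonucleotide reductase, had 235 and 2159 counts (3.40). TYMS, thymidylate synthase, was at 2.15 with 330 and 1272 counts, and TK1, thymidine kinase, had 308 and 1071. DCTD, which converts dCMP to dUMP, was lower in MAEL KO at -0.63.

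The E2F and RB list had 16 tested genes, of which 3 passed 2 (18.8%, against 2.16% of all tested genes). E2F8 had 59 and 392 counts (2.92), E2F7 had 75 and 314 (2.26) and MYBL2 had 941 and 3800 (2.22). E2F8 and E2F7 are repressors that act late in S phase, and MYBL2 is a factor of the later cycle. E2F1, an activator, had 792 and 1763 counts (1.36), E2F2 was at 1.74 and E2F3 at 0.70. E2F4 was at 0.09, or -0.19 scaled by total counts, and RB1 at 0.47. Among 21 tested G1/S cyclins, CDKs and inhibitors, 1 passed 2 (4.76%, against 2.16% of all tested genes) and 2 were below -2 (9.52%, against 5.64%). CCNA2, the S-phase cyclin, had 408 and 2257 counts (2.67), CCNE1 was at 1.15 and CCNE2 at 1.49. CDK inhibitors were found in both directions. CDKN2B had 1402 counts in MAEL WT and 215 in MAEL KO (-2.49, 95% interval -2.71 to -2.29), and CDKN1C had 44 and 2. CDKN2C was higher in MAEL KO, with 143 and 328 counts (1.40, 1.12 to 1.70), and CDKN2A was at 0.26, or -0.02 scaled by total counts. CDKN1A was at -0.88, and CDKN1B at -0.02 with an interval that includes 0 (-0.12 to 0.07).

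The 13 replication checkpoint genes had a median of 0.55, with WEE1 highest at 1.93, CHEK1 at 1.44, ATR at 0.55 and RAD17 lowest at -0.32. The 7 translesion synthesis genes had a median of -0.03, and none passed 1, which 10.2% of all tested genes did. The 11 genes of mitochondrial DNA replication had a median of 0.43. Of these, TFAM alone passed 1, at 1.31 (9.09%, near the 10.2% of all tested genes). The 15 genes of mitosis had a median of 2.08 (1.96 to 2.20) and 9 passed 2 (60%, against 2.16% of all tested genes). CENPF, a kinetochore protein, was highest at 2.47 and CENPE, a kinetochore motor, lowest at 1.36. The interval of the median of the 41 replication genes was 1.50 to 1.98. Such intervals treat chosen genes of 1 library pair as separate draws, so they cannot compare lists, and no test between lists was made.

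**Figure D4:**
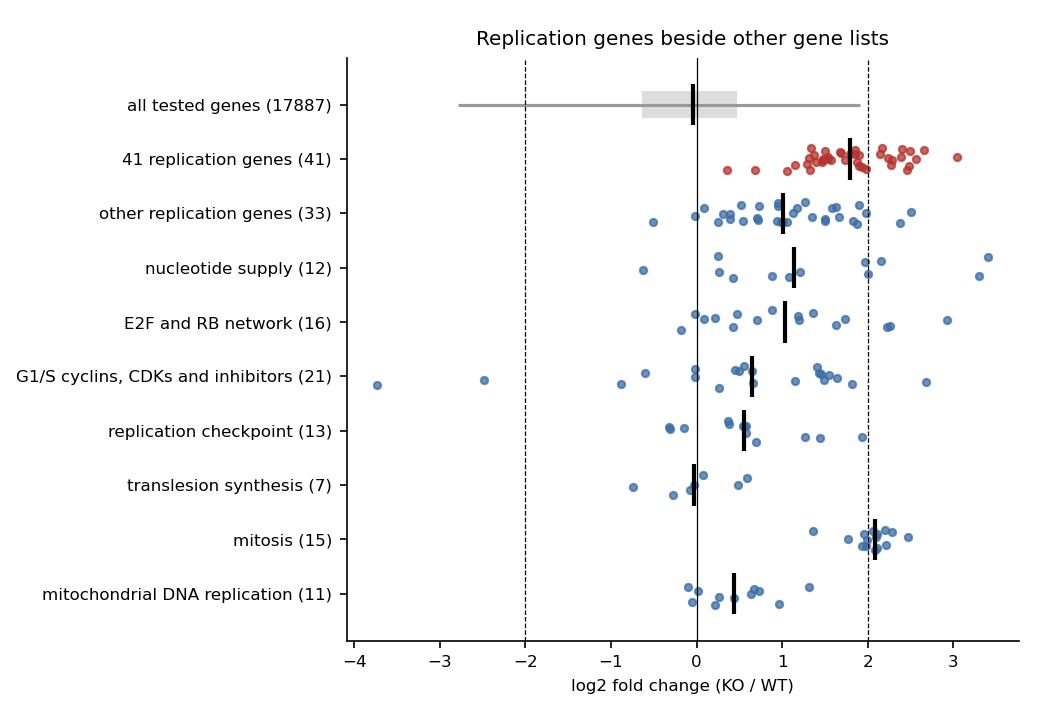
Log2 fold change of the 41 replication genes and of 8 other lists, 1 point per gene with a black bar at the median, and the number of tested genes in brackets. For all 17887 tested genes the box spans the middle 50% and the line the middle 95%, and the 41 genes and the mitosis list have the medians furthest to the right, at 1.79 and 2.08.

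E2F words were found in 19 of the 35 genes with a promoter window. By window they were found in 19 of 44, or 43.2%, against 4.71% of 16382 windows of tested genes and 3.31% of all 35116 windows. Mean GC content was 63.8% in the 44 windows and 63.3% in those of tested genes. The words began between positions -187 and 8 from a start site. Genes with a word had a median log2 fold change of 1.94 (1.15 to 2.66, n = 19), and genes with a window but no word had a median of 1.47 (0.36 to 2.56, n = 16). The ranges overlap widely. ORC1, MCM10 and PRIM1 had no such word and passed 2, while POLA2 and CDC6 had a word and were at 1.15 and 1.50. RFC1 and all polymerase delta genes with a window, POLD1 and POLD2, had none. The CCAAT word was in 56.8% of the 44 windows and 34.7% of windows of tested genes. The word TTTGAA, the core of an element of mitotic genes, was in 1 window, that of DBF4, or 2.27%, against 10.5%. These matches describe letters in a window and not binding.

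**Figure D5:**
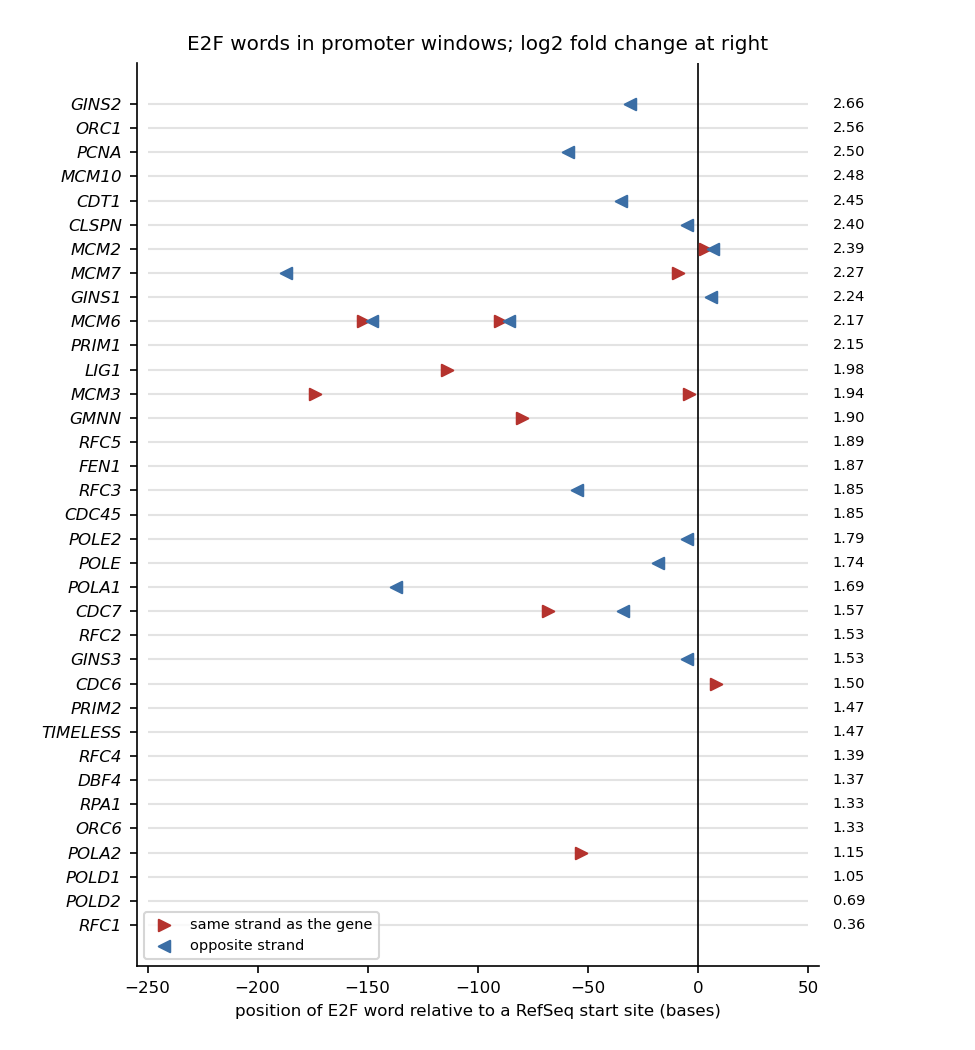
Position of E2F words in bases relative to a RefSeq start site (0), for the 35 genes with a window, ordered by log2 fold change, which is printed at the right. Arrows give the strand of the word, and 19 genes carry at least 1, on both sides of the fold change range.

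Other genes overlap the exons of 17 of the 41 genes on either strand. Among the other 24 genes, 8 passed 2, against 2.16% of all tested genes. The median of the 24 was 1.82, with MCM4 highest and RFC1 lowest as before.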

How the data were processed

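Total RNA of 1 MAEL WT and 1 MAEL KO culture was sequenced on a HiSeq instrument. The submitters' processing notes name HISAT2 2.0.5, featureCounts 1.5.0-p3 and hg19. The gene coordinates in the tables are those of GRCh38, and those of all 41 genes match GENCODE 29. The authors deposited whole-number read counts per gene without normalization. They also deposited FPKM values, whose library sizes, worked back from counts and listed lengths, were 1.10 and 0.910 times the total counts. Both libraries were normalized here with TMM factors from edgeR 4.0.16 (1.10 and 0.909) over all genes, in R 4.3.3, and brought to the mean of both effective depths. DESeq2 1.42.0 gave other size factors. Intervals and ratios were computed with SciPy 1.17.1, tables and motif searches with pandas 2.3.3 and NumPy 2.4.6, and plots with matplotlib 3.10.9, all in Python 3.11.15. A difference was computed for genes with at least 10 counts in 1 library, and the scripts were tested on simulated data. With 1 library per genotype there is no replicate error, and p-values are not given. An edgeR exact test that assumes a coefficient of variation was run as an alternative only, and it compares 2 libraries, not genotypes. Intervals hold counting error alone, because each genotype has 1 library. PCR copies were not told apart by molecular tags, so even the counting error may be larger than the intervals show. The interval of a median was taken between ranked values by the binomial distribution. It treats the genes of a list as separate draws and holds no replicate error. The 41 genes and the lists were chosen with earlier results of these data known. Named are all 41 genes, a fixed set of cell-cycle genes, and up to 3 genes at each end of the other lists by log2 fold change. POLE3, CHTF8, CHTF18, ATAD5, CDKN2A and CDKN2C, some markers and the overlapping genes were named after their values were seen. The pairs of genes, the promoter words and the exon overlaps were chosen after values had been seen. The values of 1 gene among the other lists are not reported here.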

Additional observations from a re-analysis of the deposited data

How the results depend on the processing

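The counts of 13 genes above 2 and 0 below -2 were 13 and 0 with DESeq2 size factors, the deposited FPKM ratio, 0.1 or 5 added in place of 1, no filter on low counts and at least 100 counts. Under these settings between 1.40% and 2.44% of all genes compared passed 2. With total counts the all-gene median was -0.31 in place of -0.04, and the median of the 41 was 1.52. Then 9 of the 41 genes passed 2, against 1.50% of all tested genes. With the median of each chromosome subtracted, 15 passed 2, against 2.31% of all tested genes. At a log2 threshold of 1 the number was 39, against 10.2% of all tested genes. In edgeR's exact test at an adjusted p of 0.01, 13 of the 41 genes passed 2 with a coefficient of variation of 0.1. At that setting 336 of all tested genes (1.88%) did so. With 0.4 it was 0 of the 41 and 15 of all tested genes, so the calls rest on the spread assumed in place of replicates. Among genes with no exon overlap, an alternative chosen after seeing the data, 8 of 24 passed 2, by construction fewer. The share of all tested genes past 2 was 2.16%. The MCM2-7 spread without length was 4.89 and 4.86 times. The mitosis median was 1.80 with total counts, which shift all genes downward. All 246 values of the 41 genes under 6 alternatives stayed above 0, and 43 moved beyond their counting interval, 37 of them with total counts. No replicate could be left out, and no paired analysis was possible because each genotype has 1 library. Depth limits POLA2 and PRIM1 most, the genes with fewer than 100 counts in MAEL WT.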
